A study of Homo sapiens with 12 samples.

Results

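The genes described here are the folding machinery and the stress sensors of the endoplasmic reticulum (ER), 38 genes named for the ATF6 and XBP1 arm of the unfolded protein response and for ER folding, degradation and export. They were chosen by name, with earlier results of these data known. Each was read from the array feature annotated to its symbol (the brightest where a gene had several, which applied to none of them). Of the 38, 37 were measured among 17687 genes; HSP90B1 is not analysed here. Their RNA was measured in DLD1 and HCT 116 cells, 2 established lines from human colorectal cancers, on single-colour Affymetrix arrays. Each line had received siBRG1, an siRNA against BRG1, or siControl, a control siRNA. The groups were DLD1 siBRG1, DLD1 siControl, HCT 116 siBRG1 and HCT 116 siControl, with 3 arrays each. BRG1, encoded by SMARCA4, is a catalytic ATPase of SWI/SNF, a family of complexes that remodel chromatin, and the comparison asks what changes when it is suppressed. Neither the siRNA sequence nor the interval between transfection and harvest is stated in the labels. In 4 HCT 116 samples the source name bears a different number from the title, and the title was followed. Whether replicate arrays stem from independent cultures is not said, so p-values here reflect array-to-array spread that may be technical.

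Proteins destined for membranes and for secretion fold in the ER with the help of chaperones such as BiP (HSPA5), lectin chaperones and disulfide isomerases, and those that fail are extracted and degraded. When unfolded proteins accumulate, the membrane sensors IRE1 (ERN1), PERK (EIF2AK3) and ATF6 are activated. ATF6 is cleaved and IRE1 splices the XBP1 transcript, and both resulting transcription factors raise chaperone and degradation genes, while PERK acts through translation and ATF4. Sensor activation happens on protein and by splicing, and the array values give RNA per gene only. Cells that secrete much, such as the goblet cells of the intestine, depend on this machinery.

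All values are on the log2 scale of the deposited table, so a difference of 1 is a doubling, and a fold is 2 to the power of a difference. Array medians lay between 6.71 and 6.92. SMARCA4 read 6.29, 6.55 and 6.31 in DLD1 siBRG1 arrays, against 10.31, 9.95 and 10.29 in DLD1 siControl arrays, and 6.78, 6.39 and 7.03 in HCT 116 siBRG1 arrays, against 10.12, 10.15 and 9.59 in HCT 116 siControl arrays. The groups did not overlap in either line (exact 2-sided permutation p = 0.1 each, the smallest that 3 arrays against 3 allow). Of 9 intestinal epithelial markers, EPCAM, CDH1, KRT8, KRT18, KRT19 and CDX2 lay above the array median in all 12 arrays, whereas VIL1, CDX1 and LGALS4 lay below it in all 12. Of 11 measured markers of fibroblasts, immune and endothelial cells, COL1A2 was above the median in all arrays and CD68 in the HCT 116 siBRG1 arrays; the other 9 were below it throughout. The mean log2 level of those 11 markers was 4.52 to 4.61 in DLD1 siBRG1, 4.51 to 4.54 in DLD1 siControl, 4.87 to 4.92 in HCT 116 siBRG1 and 4.60 to 4.98 in HCT 116 siControl arrays, and CD68, a macrophage marker, rose by 1.29 after siBRG1 in HCT 116 (limma adjusted p = 0.0036). The part of such cells in the results was not tested. In bulk RNA, fewer expressing cells and less RNA per cell cannot be told apart.

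After siBRG1, CRELD2 fell in both lines. In HCT 116, CRELD2, MANF, PDIA4, PDIA6 and HERPUD1 fell, 5 of the 37 genes, and none rose. Over all genes the same test called 6.95% in HCT 116, 4.13% lower and 2.82% higher. Shares over all genes are not matched for level. The median level divides the 17687 genes into equal parts, and 35 of the 37 lay above it. With only genes above that level fitted, 5 of the 35 fell and 2 rose in HCT 116, against 834 and 605 of all genes above it. In DLD1, CRELD2 fell and the other 36 did not pass, where the test called 0.198% of all genes, 0.130% lower and 0.0678% higher. The test was limma over all 17687 genes with Benjamini-Hochberg adjustment and a threshold of 0.05, here and below. Arrays were not paired in it unless a replicate block is named. The median change of the 37 genes was -0.20 in DLD1 and -0.23 in HCT 116, against 0.01 and -0.01 over all genes. The change was below 0 for 28 of the 37 in DLD1 and 23 in HCT 116, against 47.9% and 51.9% of all genes. It was below 0 in both lines for 22 of the 37, against 30.3% of all genes. With every array centred on its own median, the HCT 116 calls became CRELD2 and MANF lower and ERN1 and SEC23B higher, while over all genes 645 were higher and 559 lower in place of 499 and 731.

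**Figure D1:**
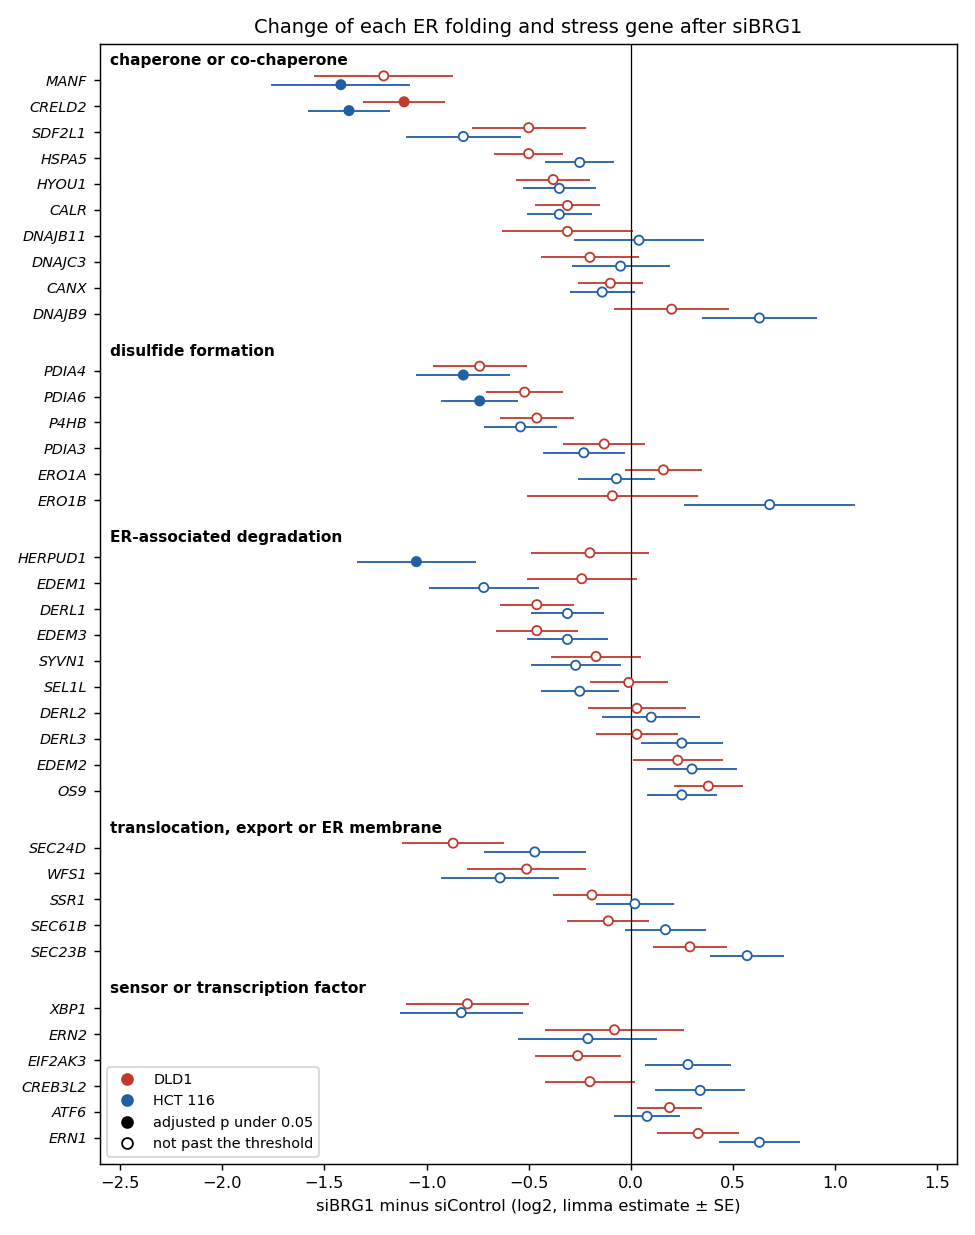
Change after siBRG1 (siBRG1 minus siControl, log2, limma estimate with SE) of the 37 measured genes, grouped by role, with DLD1 in red and HCT 116 in blue; filled points have an adjusted p under 0.05. Filled points occur for CRELD2 in both lines and for MANF, PDIA4, PDIA6 and HERPUD1 in HCT 116, all to the left of 0.

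Among the chaperones and their partners, CRELD2 (Entrez gene 79174) had the smallest adjusted p in both lines. It encodes a secreted and ER-resident protein with EGF-like domains that is induced by ER stress. It read 9.68, 9.40 and 9.65 in DLD1 siBRG1 arrays, against 10.56, 10.42 and 11.08 in DLD1 siControl arrays. In HCT 116 it read 8.86, 8.56 and 8.45 in siBRG1 arrays, against 10.07, 10.00 and 9.94 in siControl arrays. Each siBRG1 array was below each siControl array of its line. The change was -1.11 in DLD1 (SE 0.20, limma adjusted p = 0.0395), 2.15-fold lower, and -1.38 in HCT 116 (SE 0.20, adjusted p = 0.000948), 2.60-fold lower. With the replicate number as a block, CRELD2 remained the 1 called gene in DLD1 (adjusted p = 0.0324), where 0.554% of all genes passed. The HCT 116 call stood in all 12 fits that left out 1 array. The DLD1 call stood in 4 of them and was lost with DLD1 fitted alone. It was lost without DLD1 siControl replicate 1 or 3, DLD1 siBRG1 replicate 2 or 3, or replicate 2 or 3 of either HCT 116 group, with adjusted p up to 0.185.

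MANF (Entrez gene 7873), a secreted and ER-retained factor that binds BiP and protects cells under ER stress, fell in HCT 116. It read 10.04, 9.23 and 8.32 in DLD1 siBRG1 arrays, against 10.66, 10.05 and 10.50 in DLD1 siControl arrays. Its HCT 116 values were 8.91, 8.08 and 8.48 in siBRG1 arrays, against 9.98, 9.92 and 9.84 in siControl arrays. The groups did not overlap in either line, although the DLD1 siBRG1 arrays were widely spread and the highest of them came within 0.01 of the lowest siControl array. The change was -1.42 in HCT 116 (SE 0.34, limma adjusted p = 0.0196), 2.68-fold lower, and -1.21 in DLD1 (SE 0.34, adjusted p = 0.175), which did not pass. Its DLD1 change was -0.77 without DLD1 siBRG1 replicate 3, and it passed in DLD1 without siBRG1 replicate 1 (-1.63, adjusted p = 0.0377). Without replicate 2 or 3 of either HCT 116 group the HCT 116 call was lost, with adjusted p up to 0.0888.

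HSPA5 (Entrez gene 3309) encodes BiP, the Hsp70 of the ER lumen that also holds the sensors inactive. It read 15.46, 15.45 and 15.11 in DLD1 siBRG1 arrays, against 16.02, 15.84 and 15.66 in DLD1 siControl arrays. Its HCT 116 values were 15.45, 15.46 and 15.41 in siBRG1 arrays, against 15.55, 15.76 and 15.74 in siControl arrays. Its siBRG1 arrays lay below its siControl arrays in both lines, by small amounts. The changes of -0.50 in DLD1 (SE 0.17) and -0.25 in HCT 116 (SE 0.17) did not pass (limma adjusted p = 0.282 and 0.481).

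HYOU1, an Hsp110-type partner of BiP, and CALR, the lectin chaperone calreticulin, had the same arrangement. HYOU1 had changes of -0.38 in DLD1 and -0.35 in HCT 116, and CALR of -0.31 and -0.35. CANX, the membrane-bound lectin chaperone calnexin, had -0.10 and -0.14, with overlapping groups. SDF2L1, which assists BiP and its J-domain partner DNAJB11, had -0.50 and -0.82, also with overlap. Of the BiP co-chaperones, DNAJB9, whose product keeps IRE1 inactive, had changes of 0.20 in DLD1 and 0.63 in HCT 116, and in HCT 116 all its siBRG1 arrays were above the siControl arrays. DNAJB11 had -0.31 and 0.04 and DNAJC3 had -0.20 and -0.05. None of the chaperone changes in this paragraph passed in either line in the main fit. In HCT 116, CALR passed as lower with a trended robust prior. SDF2L1 passed there as lower with array weights and without HCT 116 siControl replicate 1. CALR exceeded 16, the log2 limit of a 16-bit scanner, in 9 arrays, CANX in 5 and HSPA5 in 1, so their scale at the top includes a step that the labels do not name.

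Of the 6 genes of disulfide formation, the isomerases PDIA4 and PDIA6 fell in HCT 116 and none passed in DLD1. The oxidases that recharge the isomerases, ERO1A (0.16 in DLD1 and -0.07 in HCT 116) and ERO1B (-0.09 and 0.68), did not pass in either line. PDIA4 (Entrez gene 9601) read 12.19, 11.83 and 11.60 in HCT 116 siBRG1 arrays, against 12.29, 12.84 and 12.95 in siControl arrays. In DLD1 it read 12.43, 12.31 and 11.88 in siBRG1 arrays, against 12.79, 13.22 and 12.84 in siControl arrays. The groups were apart in both lines, with a change of -0.82 in HCT 116 (SE 0.23, limma adjusted p = 0.0477) and -0.74 in DLD1 (SE 0.23, adjusted p = 0.232). The HCT 116 call of PDIA4 was close to the threshold. It stood in 4 of 12 fits with 1 array left out and was lost after centring, with HCT 116 fitted alone and with the replicate block (adjusted p = 0.0531). The arrays without which it was lost were DLD1 siControl replicate 1, 2 or 3, DLD1 siBRG1 replicate 2, and replicate 2 or 3 of either HCT 116 group, with adjusted p up to 0.184.

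PDIA6 (Entrez gene 10130), an isomerase that also acts on IRE1, read 13.22, 13.09 and 13.16 in HCT 116 siBRG1 arrays, against 13.75, 13.94 and 14.01 in siControl arrays. In DLD1 it read 14.70, 14.58 and 14.07 in siBRG1 arrays, against 15.14, 14.93 and 14.84 in siControl arrays. These groups were also apart in both lines, with changes of -0.74 (SE 0.19, limma adjusted p = 0.0283) in HCT 116 and -0.52 (SE 0.19, adjusted p = 0.317) in DLD1. The HCT 116 call stood in 7 of the 12 fits and was lost after centring. It was lost without HCT 116 siControl replicate 2 or 3 or any HCT 116 siBRG1 array, with adjusted p up to 0.101. P4HB, the archetypal protein disulfide isomerase, averaged 14.51 ± 0.33 in DLD1 siBRG1 and 14.97 ± 0.03 in DLD1 siControl arrays (SD, n = 3 each). In HCT 116 it averaged 14.95 ± 0.05 in siBRG1 and 15.48 ± 0.12 in siControl arrays (SD, n = 3 each). Its changes of -0.46 and -0.54 did not pass in either line in the main fit. In HCT 116, P4HB passed as lower with a trended robust prior and with array weights. PDIA3, the isomerase that works with calnexin and calreticulin on glycoproteins, had -0.13 and -0.23, with overlapping groups.

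**Figure D2:**
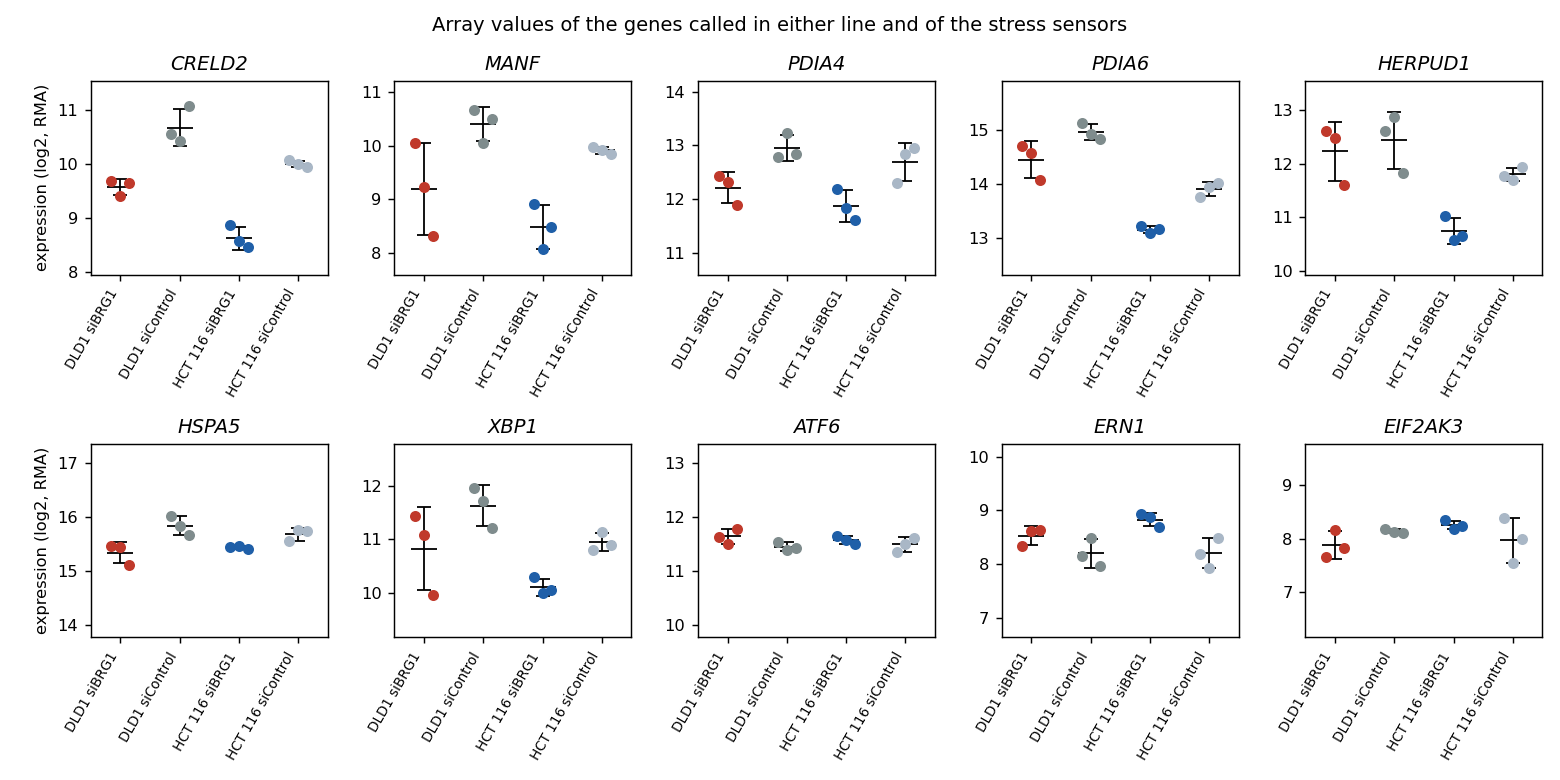
Log2 array values (points), group means and SD (bars) of the 5 genes called in either line and of HSPA5, XBP1, ATF6, ERN1 and EIF2AK3 in the 4 groups, each panel spanning the same log2 range. For CRELD2, MANF, PDIA4, PDIA6 and HSPA5 the siBRG1 points lie below the siControl points of the same line in both lines.

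Of the 10 genes of ER-associated degradation, HERPUD1 fell in HCT 116 and no other passed in either line. HERPUD1 (Entrez gene 9709) encodes a stress-induced membrane protein that assembles the degradation complex. It read 11.03, 10.57 and 10.65 in HCT 116 siBRG1 arrays, against 11.76, 11.70 and 11.93 in siControl arrays, without overlap. In DLD1 it read 12.61, 12.48 and 11.60 in siBRG1 arrays, against 12.60, 12.86 and 11.83 in siControl arrays, and the groups overlapped. The change was -1.05 in HCT 116 (SE 0.29, limma adjusted p = 0.0395), 2.07-fold lower, and -0.20 in DLD1 (SE 0.29, adjusted p = 0.899). The difference between the lines, -0.85 (SE 0.40), did not pass (adjusted p = 0.569), so the response of HERPUD1 is not shown to differ between them. The HCT 116 call was lost after centring, after a further quantile normalization, and in 5 of the 12 fits. Those were the fits without HCT 116 siControl replicate 1, 2 or 3 or siBRG1 replicate 2 or 3, with adjusted p up to 0.13.

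The mannosidase-like EDEM genes mark glycoproteins for degradation. EDEM1 had changes of -0.24 in DLD1 and -0.72 in HCT 116, EDEM2 0.23 and 0.30, and EDEM3 -0.46 and -0.31. The channel proteins of the Derlin family had -0.46 and -0.31 (DERL1), 0.03 and 0.10 (DERL2) and 0.03 and 0.25 (DERL3). SYVN1, the ubiquitin ligase also called HRD1, had -0.17 and -0.27. SEL1L, its adaptor, had -0.01 and -0.25. The lectin OS9, which hands glycoproteins to that ligase, had 0.38 and 0.25. In DLD1 its siBRG1 arrays were all above the siControl arrays. The degradation genes thus had changes on both sides of 0 in each line, with a median of -0.09 in DLD1 and -0.26 in HCT 116. For the chaperones and their partners the medians were -0.35 and -0.30.

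The 5 genes of translocation, vesicle export and the ER membrane did not pass in either line in the main fit. In HCT 116, SEC23B passed as higher and WFS1 as lower with the replicate block. SEC23B also passed there after centring, with only genes above the median level fitted, with a trended robust prior and with array weights. SEC24D and SEC23B, subunits of the COPII coat that carries cargo out of the ER, pointed in opposite directions. SEC24D had -0.87 (SE 0.25) in DLD1 and -0.47 (SE 0.25) in HCT 116, and SEC23B had 0.29 (SE 0.18) and 0.57 (SE 0.18). SEC61B, a subunit of the translocation channel, had -0.11 and 0.17, and SSR1, of the translocon-associated complex, -0.19 and 0.02. WFS1, wolframin, an ER membrane protein whose loss causes ER stress, had -0.51 and -0.64.

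The sensor genes and their transcription factors did not pass in either line in the main fit. In HCT 116, XBP1 passed as lower with the replicate block and with that line fitted alone. ERN1 passed there as higher after a further quantile normalization, after centring, with only genes above the median level fitted, and with array weights. XBP1 (Entrez gene 7494) read 11.44, 11.08 and 9.97 in DLD1 siBRG1 arrays, against 11.95, 11.72 and 11.22 in DLD1 siControl arrays. Its HCT 116 values were 10.30, 10.00 and 10.05 in siBRG1 arrays, against 10.81, 11.14 and 10.89 in siControl arrays. The groups overlapped in DLD1 and were apart in HCT 116, and the changes of -0.80 (SE 0.30) and -0.83 (SE 0.30) had limma adjusted p-values of 0.349 and 0.123. Without DLD1 siBRG1 replicate 3 the DLD1 change was -0.37. The array value does not tell spliced from unspliced XBP1 transcripts.

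ERN1 (Entrez gene 2081), which encodes the kinase and RNase IRE1, read 8.93, 8.87 and 8.69 in HCT 116 siBRG1 arrays, against 8.19, 7.92 and 8.48 in siControl arrays. In DLD1 it read 8.33, 8.61 and 8.63 in siBRG1 arrays, against 8.15, 8.49 and 7.96 in siControl arrays. The siBRG1 arrays were above all siControl arrays in HCT 116 and overlapped them in DLD1. The changes were 0.63 (SE 0.20, limma adjusted p = 0.0728) and 0.33 (SE 0.20, adjusted p = 0.644). ATF6 (Entrez gene 22926) read 11.63, 11.50 and 11.78 in DLD1 siBRG1 arrays, against 11.54, 11.38 and 11.42 in DLD1 siControl arrays. Its HCT 116 values were 11.64, 11.57 and 11.50 in siBRG1 arrays, against 11.35, 11.50 and 11.62 in siControl arrays. Its changes were 0.19 (SE 0.16) and 0.08 (SE 0.16). EIF2AK3 (Entrez gene 9451), which encodes PERK, read 7.66, 8.16 and 7.82 in DLD1 siBRG1 arrays, against 8.18, 8.13 and 8.10 in DLD1 siControl arrays. In HCT 116 it read 8.34, 8.18 and 8.23 in siBRG1 arrays, against 8.38, 7.54 and 7.99 in siControl arrays. The groups of both genes overlapped in both lines, and EIF2AK3 had changes of -0.26 (SE 0.21) and 0.28 (SE 0.21). CREB3L2, an ATF6-like membrane factor, had -0.20 and 0.34. ERN2, the epithelial paralog of ERN1, lay below the array median in 10 arrays and DERL3 in all 12, where this table, which has no detection calls, cannot tell a signal from background.

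The lines have separate arrays, so their group orders can be set side by side. In 8 of the 37 genes, HSPA5, HYOU1, CALR, CRELD2, MANF, PDIA4, PDIA6 and P4HB, all siBRG1 arrays lay below all siControl arrays in both lines, against 2.58% of all genes. All 8 encode proteins of the ER lumen, 5 grouped with the chaperones and their partners and 3 with the disulfide isomerases. No gene of degradation, translocation, export or sensing did so, and no gene of the 37 was above in both lines, where 2.52% of all genes were. Within a line, 10 of the 37 were lower without overlap in DLD1 (7.19% of all genes) and 12 in HCT 116 (13.0%). In the other direction there was 1 in DLD1 (8.33% of all genes) and 3 in HCT 116 (11.9%). The sign of the change was the same in both lines in 30 of the 37 genes, against 60.9% of all genes.

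Averaged over both lines, 7 of the 37 genes fell and 2 rose, against 4.68% and 4.01% of all genes (8.68% together); these averages rest on the arrays already described. CRELD2 (-1.24, SE 0.14, limma adjusted p = 0.000261), MANF (-1.32, SE 0.24, adjusted p = 0.00425), PDIA4 (-0.78, SE 0.16) and PDIA6 (-0.63, SE 0.13) fell and passed in all 12 fits with 1 array left out. XBP1 (-0.81), SEC24D (-0.67) and P4HB (-0.50) fell, and ERN1 (0.48) and SEC23B (0.43) rose. These 5 calls were lost in 7 or more of the 12 fits, among them that without DLD1 siBRG1 replicate 3 for each of the 5, which brought the count to 4. It also came to 4 without DLD1 siControl replicate 1 or HCT 116 siControl replicate 2, and to 5 without DLD1 siControl replicate 2, HCT 116 siControl replicate 3 or HCT 116 siBRG1 replicate 2 or 3. With the replicate block, DERL1, HERPUD1, HSPA5, HYOU1, SDF2L1 and WFS1 also passed as lower on average.

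No gene of the 37 passed when the changes of the lines were compared (HCT 116 change minus DLD1 change), where limma called 0.334% of all genes. With so small a share, the absence of calls among 37 genes says little. At an unadjusted p under 0.05 there were 0 of the 37, against 1590 of all 17687 genes. The differences ran from -0.85 to 0.77, and the SE of a difference was 0.28 for CRELD2 and 0.48 for MANF. Differences larger than their errors did not pass either, as that of HERPUD1, -0.85 (SE 0.40, limma adjusted p = 0.569). With 3 arrays a group, differences of that size can thus go unseen.

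Single arrays weighed on the DLD1 values. DLD1 siBRG1 replicate 3 was the lowest of the 6 DLD1 arrays for 18 of the 37 genes, against 17.9% of all genes. It was the highest for 6. The median difference of the 37 genes from the siControl mean was -0.23, -0.04 and -0.32 in DLD1 siBRG1 replicates 1, 2 and 3. In HCT 116 it was -0.11, -0.16 and -0.25. Across the siBRG1 arrays the median over all genes stayed between -0.04 and 0.02. Without DLD1 siBRG1 replicate 3 the median DLD1 change of the 37 genes was -0.16, and without DLD1 siBRG1 replicate 2 it was -0.33. It was -0.13 without DLD1 siControl replicate 2 and -0.31 without DLD1 siControl replicate 3.

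**Figure D3:**
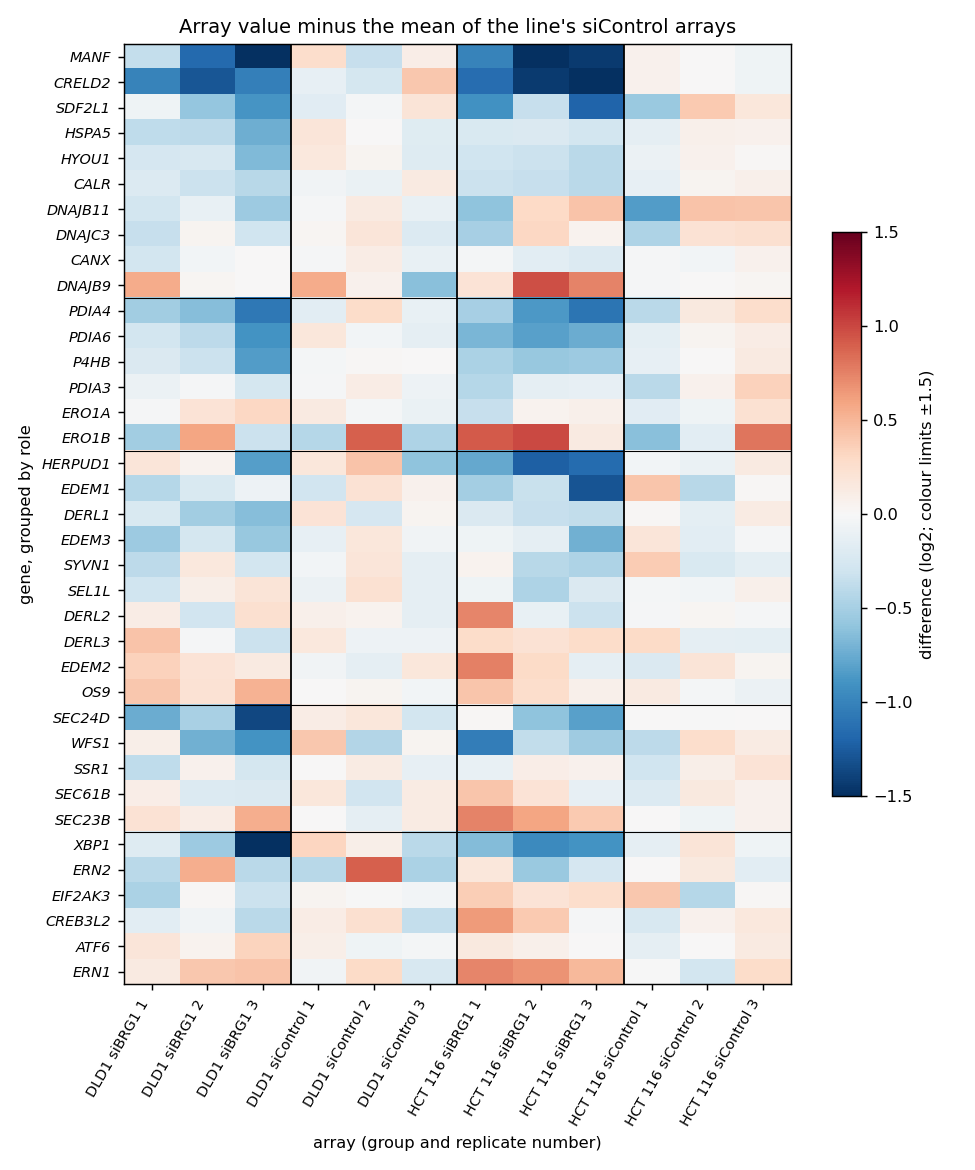
Difference of each array value from the mean of the siControl arrays of its line (log2, blue below and red above, colours cut at 1.5) for the 37 genes in rows, grouped by role, and the 12 arrays in columns. MANF, CRELD2, HSPA5, HYOU1, CALR, PDIA4, PDIA6 and P4HB are blue in all 6 siBRG1 columns, and DLD1 siBRG1 replicate 3 is the darkest of its group for most of them.

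ER chaperone promoters are known for the ER stress response element (ERSE), at which NF-Y binds the CCAAT part and ATF6 or XBP1 the CCACG part, and for its compact form ERSE-II. Both were searched on both strands in RefSeq promoter windows (GRCh38.p14, 250 bases before to 50 after the start), the ERSE spelled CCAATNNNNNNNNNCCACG and the ERSE-II spelled ATTGG, any base, then CCACG. Both hold CCACG. Windows were found for 32 of the 37 genes. The ERSE letters stood in 6 of these 32 (18.8%) and in 22 of 27305 promoter windows (0.08%), and the ERSE-II letters in 3 of 32 (9.4%) and in 15 of 27305 (0.05%). Among the 14250 measured genes with a window, 18 (0.13%) held the ERSE letters and 12 (0.08%) the ERSE-II letters. The 37 genes were named for the ATF6 and XBP1 arm, so their larger share is not an independent result. A match is a description of letters and not evidence of binding. The windows of CRELD2 and HERPUD1 are shown because these genes fell, and those of HSPA5 and XBP1 as the central chaperone and the transcription factor; capitals mark the fixed letters of the element, and each window is written 5′ to 3′ on the strand of the gene.
CRELD2: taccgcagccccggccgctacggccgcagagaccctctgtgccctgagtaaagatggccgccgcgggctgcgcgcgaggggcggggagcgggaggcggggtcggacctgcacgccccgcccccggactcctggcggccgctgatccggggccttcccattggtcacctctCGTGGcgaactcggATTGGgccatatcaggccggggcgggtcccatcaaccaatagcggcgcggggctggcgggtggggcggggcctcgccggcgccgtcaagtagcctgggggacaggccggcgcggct
HERPUD1: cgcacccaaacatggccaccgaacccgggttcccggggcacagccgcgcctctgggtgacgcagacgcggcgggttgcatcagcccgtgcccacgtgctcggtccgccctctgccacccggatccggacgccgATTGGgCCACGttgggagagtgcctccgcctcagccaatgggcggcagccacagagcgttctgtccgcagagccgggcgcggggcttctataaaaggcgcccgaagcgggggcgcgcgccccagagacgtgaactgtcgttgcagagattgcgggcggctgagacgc
HSPA5: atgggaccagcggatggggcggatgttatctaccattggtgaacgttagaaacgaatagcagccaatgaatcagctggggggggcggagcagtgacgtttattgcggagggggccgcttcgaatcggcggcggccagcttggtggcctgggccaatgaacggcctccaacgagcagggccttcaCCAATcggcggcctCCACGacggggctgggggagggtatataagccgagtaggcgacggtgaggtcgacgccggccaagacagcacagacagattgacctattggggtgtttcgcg
XBP1: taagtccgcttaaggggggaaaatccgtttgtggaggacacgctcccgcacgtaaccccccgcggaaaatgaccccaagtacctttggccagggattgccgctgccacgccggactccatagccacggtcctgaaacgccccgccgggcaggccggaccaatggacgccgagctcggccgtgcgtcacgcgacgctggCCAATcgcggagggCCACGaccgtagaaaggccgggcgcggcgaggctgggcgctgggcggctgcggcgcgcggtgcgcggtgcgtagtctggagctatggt
The CRELD2 window is chr22:49918384-49918683 (plus strand), with the ERSE on the opposite strand from position -80 relative to the start. The HERPUD1 window is chr16:56931892-56932191 (plus strand), with an ERSE-II from -117. The HSPA5 window is chr9:125241294-125241593 (minus strand), with an ERSE from -66. The XBP1 window is chr22:28800520-28800819 (minus strand), with an ERSE from -52.

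The elements of the other members that held one are given alone, read in the direction of the element, to show how the spacer differs while the fixed letters (capitals) stay.
CALR: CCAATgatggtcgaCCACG
CANX: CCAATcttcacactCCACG
ERO1B: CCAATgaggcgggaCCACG
HYOU1: ATTGGaCCACG
SDF2L1: ATTGGtCCACG
They lie at chr19:12938384-12938402 for CALR, chr5:179698778-179698796 for CANX, chr1:236282183-236282201 for ERO1B and chr22:21642114-21642124 for SDF2L1. The HYOU1 letters occur at both chr11:119057380-119057390 and chr11:119057274-119057284. The 9 members with either element had a median change of -0.38 in DLD1 and -0.35 in HCT 116, with 1 and 2 called lower and none higher. The 23 members whose window held neither had medians of -0.19 and 0.02, with 0 and 3 called lower; MANF, PDIA4 and PDIA6, which fell in HCT 116, are among these. Of 14218 genes outside the 37 with a window, 21 were called lower in DLD1 and 591 in HCT 116. The DLD1 count of 0 is limma's, with 6 of the 23 at an unadjusted p under 0.05, against 1533 of those 14218. These letters were not in those windows, which says nothing of sites elsewhere or with other letters.

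Around these genes, 169 others of the ER and of related stress pathways were measured in 8 lists. In HCT 116, 7 of the 169 rose and 15 fell, against 2.82% and 4.13% of all genes. The median change of the 169 there was -0.07. In DLD1 limma called none, where it called 0.198% of all genes. Of the 169, 31 had an unadjusted p under 0.05 in DLD1, against 1860 of all 17687 genes. With the replicate block limma called 1 higher, ERP27, and 1 lower, ASNS, against 0.554% of all genes. In the ATF4 and integrated stress response list, which holds the output of the PERK arm, 3 of 18 rose and 2 fell in HCT 116. DDIT3, the stress-induced factor CHOP, read 8.76, 8.91 and 9.35 in HCT 116 siBRG1 arrays, against 5.31, 6.86 and 6.92 in siControl arrays (change 2.64, SE 0.39, limma adjusted p = 0.000995). PPP1R15A, the phosphatase subunit that ends the translation block, rose by 1.58. ATF4 itself rose by 0.71, the kinase gene EIF2AK1 fell by 0.73 and the asparagine synthetase gene ASNS fell by 2.04; ATF4 and EIF2AK1 are named after their values were seen. ASNS is itself a known target of ATF4, so the list's calls ran both ways. In DLD1, DDIT3 had a change of 1.08 and ASNS of -1.12, neither past the threshold. With the replicate block ASNS passed in DLD1 (limma adjusted p = 0.047). Its DLD1 change was -0.51 without DLD1 siBRG1 replicate 3 and -0.68 without DLD1 siControl replicate 2.

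Of 11 other ER stress transducers, MBTPS1 fell in HCT 116 and none rose, against 4.13% and 2.82% of all genes. MBTPS1 encodes the site-1 protease of the Golgi, which cleaves ATF6 and the SREBP factors. It read 11.81, 11.77 and 11.66 in HCT 116 siBRG1 arrays, against 12.43, 12.39 and 12.68 in siControl arrays (change -0.76, SE 0.17, limma adjusted p = 0.0136). In DLD1 the change was -0.25. Of 25 genes of the COPII coat and cargo receptors, KDELR3 (-1.35), LMAN2 (-0.87) and KDELR1 (-0.72) fell in HCT 116 and none rose. The KDEL receptors return escaped ER chaperones from the Golgi, and LMAN2 is a lectin of the same route. KDELR3 read 9.79, 10.27 and 10.14 in HCT 116 siBRG1 arrays, against 10.96, 11.59 and 11.70 in siControl arrays. In DLD1 it read 11.02, 10.91 and 10.32 in siBRG1 arrays, against 11.68, 11.68 and 11.94 in siControl arrays. Its groups were apart in both lines, and the DLD1 change of -1.02 (SE 0.24) had an adjusted p of 0.108.

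For the lists that follow, the HCT 116 test called 4.13% of all genes lower and 2.82% higher, shares not matched for level. Whether a list differs from all genes was not tested. Of 28 other ER folding factors, 4 fell in HCT 116 and 2 rose. The largest changes were those of the prolyl isomerase gene FKBP7 (-1.51), CNPY3, a chaperone for Toll-like receptors (-1.43), and ERP29 (-1.17). In DLD1 the largest change of that list was 1.11 for ERP27 (adjusted p = 0.205, and 0.032 with the replicate block), and 0.73 without DLD1 siControl replicate 2. Of 25 genes of N-glycosylation, the oligosaccharyltransferase genes RPN1 (-0.98) and STT3B (-0.76) fell in HCT 116 and none rose. In DLD1 OSTC had -0.60 (adjusted p = 0.374). Of 21 other degradation genes, AUP1 rose by 0.89 and ERLIN2 fell by 0.92 in HCT 116, and in DLD1 HERPUD2 had -0.73 (adjusted p = 0.111). None of 22 genes of the translocon, signal recognition particle and signal peptidase passed in limma in either line. In each line 1 of them had an unadjusted p below 0.05, against 1860 of all 17687 genes in DLD1 and 3615 in HCT 116. The largest change there was that of SPCS3, with -0.65 in DLD1 and -0.44 in HCT 116. Of the transducers in DLD1, CREB3L3 had the largest change, -0.55 (adjusted p = 0.621).

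Chaperones outside the ER were set beside these genes. Of 19 cytosolic and mitochondrial chaperones and their regulators, HSPA1A (-1.75) and its partner DNAJB1 (-1.06) fell in HCT 116, and HSF1, the factor that drives heat shock genes, rose by 0.78. In DLD1 HSPA1A had -0.97 (adjusted p = 0.489), a value that was -1.55 when siBRG1 replicate 2 of that line was left out, -0.57 when siBRG1 replicate 3 was and -0.45 when siControl replicate 2 was. The list's median was -0.18 in DLD1 and -0.22 in HCT 116, close to the -0.20 and -0.23 of the 37 ER genes. Their numbers of calls in HCT 116 were 3 of 19 and 5 of 37, against 6.95% of all genes.

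The lines also differed in this machinery under the control siRNA. In HCT 116 siControl against DLD1 siControl arrays, 12 of the 37 genes were lower and 2 higher, where the test called 27.6% of all genes, 2482 lower and 2402 higher. With only genes above the median level fitted, 12 of 35 were lower and 2 higher, against 2040 and 1746 of all genes above that level. Taken in both directions together, calls were thus no more common among the 35 than among all genes at that level. Among the 35 they lay mostly on the lower side, and among all genes they were more evenly divided. The groups did not overlap for 23 lower and 2 higher of the 37, against 19.7% and 20.3% of all genes. The median difference (HCT 116 minus DLD1) was -0.46, against 0.03 over all genes. Of the 9 intestinal epithelial markers, 6 were also lower in HCT 116 siControl arrays (list median -0.84, lowest -4.08) and none higher, and their part in the result was not tested. EDEM1 differed most. It read 7.19, 6.35 and 6.79 in HCT 116 siControl arrays, against 9.29, 9.80 and 9.64 in DLD1 siControl arrays (difference -2.80, SE 0.27), a 6.98-fold lower value in HCT 116. EDEM1 lay below the array median in 5 of the 12 arrays, all of HCT 116, so the size of that difference is uncertain. WFS1 averaged 9.08 ± 0.34 in HCT 116 siControl and 10.72 ± 0.42 in DLD1 siControl arrays (SD, n = 3 each; difference -1.64). PDIA6 averaged 13.90 ± 0.13 in HCT 116 siControl and 14.97 ± 0.15 in DLD1 siControl arrays (SD, n = 3 each; difference -1.07).

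Further genes lower in HCT 116 siControl arrays were ERN2 (-1.77), ERO1B (-1.75), SEC61B (-1.22), CREB3L2 (-0.92), SYVN1 (-0.73), SEC24D (-0.72), CRELD2 (-0.68), EDEM3 (-0.63) and OS9 (-0.48). DERL1 (0.56) and P4HB (0.51) were higher. ERN2 lay below the array median in all 6 HCT 116 arrays and read 6.17, 7.49 and 6.11 in DLD1 siControl arrays. The size of its difference is therefore uncertain. After centring, OS9 and P4HB did not pass, and after a further quantile normalization OS9, P4HB and SEC24D did not. EDEM1, ERN2, ERO1B, WFS1, SEC61B, PDIA6 and CREB3L2 passed in all 12 fits with 1 array left out. CRELD2 passed in 10, the exceptions being the fits without DLD1 siControl replicate 3 or HCT 116 siControl replicate 3. SYVN1 passed in 9, EDEM3 and DERL1 in 8, SEC24D in 6, OS9 in 4 and P4HB in 2. The count of called genes was 8 without DLD1 siControl replicate 2, 9 without HCT 116 siControl replicate 2 and 7 without HCT 116 siControl replicate 3. SEL1L (0.02, SE 0.19) and ATF6 (0.04, SE 0.16) had differences smaller than their SE.

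**Figure D4:**
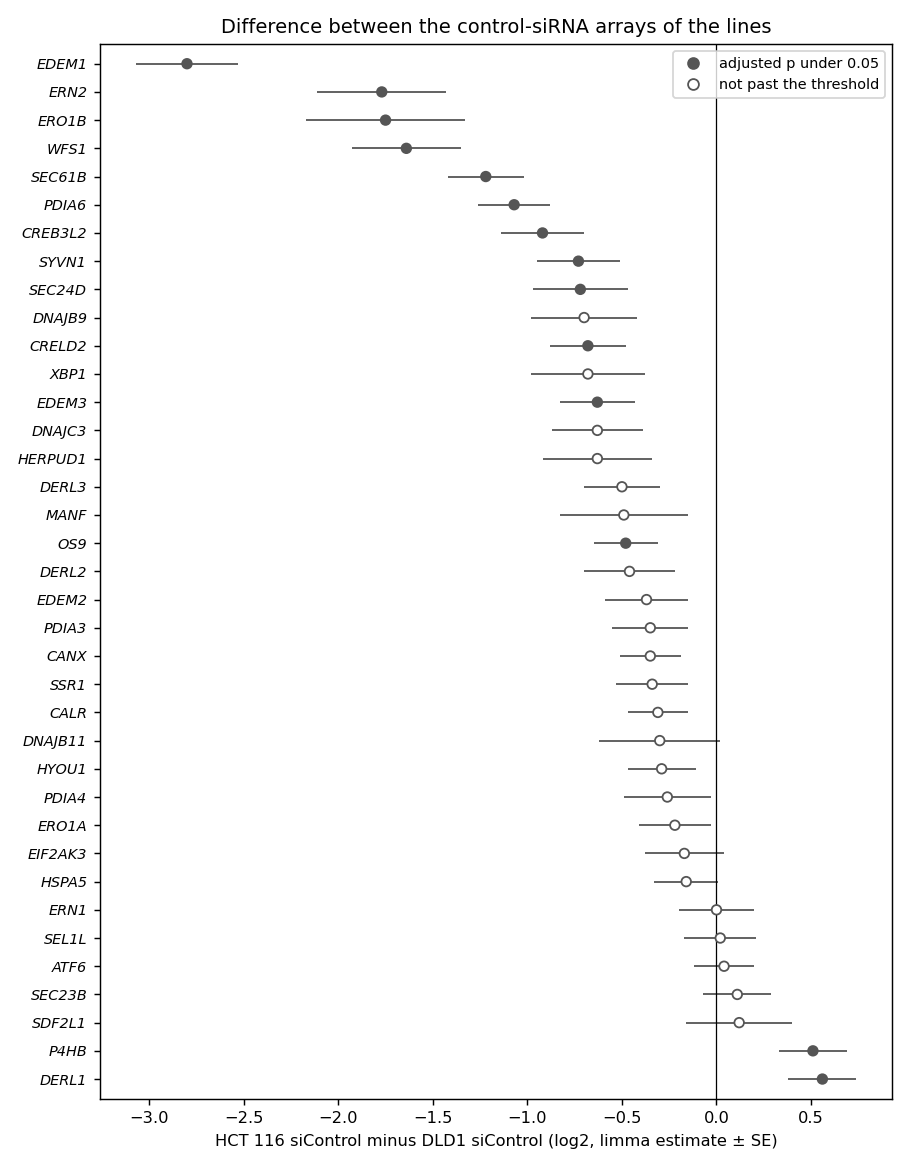
Difference between the control-siRNA arrays of the lines (HCT 116 siControl minus DLD1 siControl, log2, limma estimate with SE) for the 37 genes, sorted; filled points have an adjusted p under 0.05. Most points lie to the left of 0, from -2.80 for EDEM1 to 0.56 for DERL1.

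Between the siBRG1 arrays of the lines, 9 of the 37 genes were lower in HCT 116 and 1 was higher, where the test called 30.8% of all genes, 2966 lower and 2485 higher. EDEM1 again had the largest difference, -3.28 (limma adjusted p = 1.55e-07). The values of this comparison come from the siBRG1 arrays of the changes above. HERPUD1 read 11.03, 10.57 and 10.65 in HCT 116 siBRG1 arrays, against 12.61, 12.48 and 11.60 in DLD1 siBRG1 arrays (difference -1.48, adjusted p = 0.000891). Under the control siRNA its difference of -0.63 did not pass (limma adjusted p = 0.124). The direct comparison of the 2 changes of HERPUD1 did not pass either (-0.85, adjusted p = 0.569). An effect of siBRG1 on this line difference is therefore not shown.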

How the data were processed

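Total RNA of the 12 samples, grouped by title, was biotin-labelled and hybridised to 1 array each. Per the submitters' processing notes, the authors used Affymetrix Power Tools and RMA, which gave the deposited log2 values; their versions and the genome build are not stated in the labels. RMA subtracts background, equalises arrays and summarises probes, which can compress changes. Between 94 and 112 values per array exceed 16, beyond plain RMA. Of 21448 features 17709 had 1 symbol and 3739 none; 17687 genes remained (brightest feature of 20 genes with several).

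limma 3.58.1 in R 4.3.3 fitted 4 group means over 12 arrays (8 residual and 6.66 prior degrees of freedom), tested on simulated data. The number of arrays limits precision; there are no detection calls, scan dates or slides to test.

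Genes, lists and tests were chosen with earlier results of these data known. Array values were printed for genes called in a line, and for HSPA5, XBP1, ATF6, ERN1 and EIF2AK3; of each other list, up to 3 called genes a line, or the 1 with the largest change, were named. Deviations from group means of same-numbered siBRG1 and siControl arrays correlated at 0.49, 0.46 and 0.29 in DLD1 and 0.30, 0.15 and 0.03 in HCT 116. The numbers may thus pair the DLD1 arrays, which the labels do not state. The main tests were unpaired, and the block was an alternative. With the block, MANF and XBP1 had limma adjusted p-values of 0.086 and 0.0935 in DLD1. On average over both lines, 15 of the 37 genes then passed in place of 9. Alternatives were the block, each line alone, further quantile normalization, centring, a level filter, feature means, a trended robust prior, array weights, a stricter threshold and each array left out. Promoter windows came from RefSeq (first window per gene). Protein sequences were not used here.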

Additional observations from a re-analysis of the deposited data

How the results depend on the processing

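The SMARCA4 change kept its direction and call in every setting. Among the 37 genes, no setting gave a called gene the opposite direction. In DLD1 the count of 1 became 0 with DLD1 fitted alone and 0 at an adjusted p under 0.01, where 4 and 11 of all genes passed in place of 35; over all genes it was 98 with the replicate block, 63 with the trended prior and 128 with array weights. The block kept the DLD1 call of CRELD2 (adjusted p = 0.0324) and changed no other DLD1 call among the 37. In HCT 116, where same-numbered arrays did not all deviate together, the count of 5 became 8 with the trended prior, 9 with array weights and 1 at an adjusted p under 0.01, and over all genes 1230 became 2123 with the block, 2035 with array weights and 418 at 0.01; the block lost PDIA4 and added XBP1, WFS1 and SEC23B. For the average the count of 9 became 15 with the block, 15 with genes above the median level, 16 with array weights and 2 at 0.01, and over all genes 1536 became 2476 with the block, 2306 with array weights and 494 at 0.01. For the difference between lines 59 of all genes became 102 with the block, 162 with array weights and 16 at 0.01. Between control lines the count of 14 became 7 at 0.01. The block pairs arrays within a line and was not run between lines. Apart from the stricter threshold and fewer arrays, the cause was not tested.

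With 1 array left out, the members called ranged from 0 to 2 in DLD1, 1 to 6 in HCT 116, 4 to 12 for the average, 0 to 0 for the difference, 7 to 14 between control lines and 9 to 12 between siBRG1 lines. Over all genes the ranges were 7 to 66, 618 to 1271, 797 to 1593, 26 to 71, 4135 to 4956 and 4642 to 5663. The DLD1 change of HERPUD1, never called, ranged from -0.50 to 0.12. In HCT 116 the count was 1, CRELD2, without siControl replicate 2 or 3 or siBRG1 replicate 2 or 3. In DLD1 it was 0 without siControl replicate 1 or 3, siBRG1 replicate 2 or 3, or replicate 2 or 3 of either HCT 116 group, and 2 without siBRG1 replicate 1. In the difference between lines, centring gave 43 higher and 19 lower of all genes in place of 28 and 31. Centring moved the median of all genes between siBRG1 lines to 0.153, against 0.031.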

Other observations

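The 12 measured genes outside the 37 with the ERSE letters in their promoter window had a median change of -0.06 in DLD1 and 0.20 in HCT 116. Of the 12, 8 were below 0 in DLD1 and 2 in HCT 116. Limma called none of them in either line. At an unadjusted p under 0.05 there were 0 and 1, against 1533 and 2964 of the 14218 genes outside the 37 with a window. The 9 with the ERSE-II letters had medians of 0.20 and -0.08, with 1 higher and 1 lower in HCT 116, against 425 and 591 of the 14218. One of the ERSE holders was SERP1, a translocon-associated protein induced by ER stress.

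Of the 169 genes of the lists, SERP1, UFD1 and PRKCSH had siBRG1 arrays wholly on opposite sides of the siControl arrays in the lines. Over all genes, 7.19% were lower and 8.33% higher without overlap in DLD1, and 13.0% and 11.9% in HCT 116. The share of all genes on opposite sides in the lines was not counted, so these genes are a description only. SERP1 had a change of -0.21 in DLD1 and 0.35 in HCT 116 (difference 0.56, limma adjusted p = 0.486). UFD1, of the complex that pulls proteins out of the ER membrane, had 0.14 and -0.30 (difference -0.44, adjusted p = 0.608). PRKCSH, the beta subunit of glucosidase II, had 0.16 and -0.27 (difference -0.42, adjusted p = 0.61). None of these differences passed.

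In HCT 116 the arrays numbered 1 stood apart for DNAJB11 under both siRNAs. It read 11.88, 12.78 and 12.91 in siBRG1 arrays, against 11.64, 12.91 and 12.90 in siControl arrays. DNAJC3 was also lowest in the arrays numbered 1, with 11.22, 12.03 and 11.77 in siBRG1 arrays, against 11.26, 11.94 and 11.96 in siControl arrays. HCT 116 siControl replicate 1 had the largest deviation from its group mean over all genes (root mean square 0.320 log2, against 0.227 to 0.285 in the other 11 arrays).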
